A study of Mus musculus with 2 samples.

Results

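The 10 genes described here encode the constant regions of mouse antibodies and the chain that joins them into polymers. They were chosen by name: the heavy chain constant genes Ighm, Ighd, Ighg1, Ighg2b, Ighg2c, Ighg3, Igha and Ighe, the kappa light chain constant gene Igkc, and Jchain. All 10 were found among the 32285 genes of the deposited tables. The study implanted KPC mouse pancreatic cancer cells into the pancreas and took the tumours on day 21. The control library came from Porcnfl/fl (WT) littermates, whose labels name no Cre. The knockout library came from Csf1r-Cre;Porcnfl/fl (KO) mice, in which Cre under the Csf1r promoter deletes Porcn, the enzyme that prepares Wnt proteins for secretion. The labels call the deletion macrophage-specific; the Csf1r promoter is also known to be active in other myeloid cells. Strain, age and sex are not given in the sources used here. Tumours of 5 mice were pooled for each genotype, so there was 1 library per group. No difference below has a replicate check, no test was run, and every interval is a 95% interval for counting error only.

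The assay was droplet single-cell RNA-seq of live cells, which tags the 3′ end of each captured transcript with a unique molecular identifier (UMI). The control library held 13766 barcodes and 173934025 UMIs, the knockout library 12251 barcodes and 137527647 UMIs. After filtering, 11516 and 10467 cells were kept, with medians of 12168 and 10109 UMIs. The libraries shared 46 barcodes, of which 38 passed the filters in both, and 1 of these was a control plasma-like cell. Although the labels call the material tumour-infiltrating cells, 78.6% of the kept control cells and 54.5% of the kept knockout cells were epithelial/tumour-like. Levels are given as CPM, the UMIs of a gene per 1000000 UMIs of the cells concerned. Porcn itself had 8 UMIs in control and 4 in knockout monocyte/macrophage-like cells (3.09 CPM, 1.33 to 6.09, and 1.34 CPM, 0.365 to 3.43), and stood at 7.18 and 4.93 CPM over all kept cells. The deleted part of Porcn is not given in the sources used here and the reads come from the 3′ end, so these counts check nothing. Classes were named from marker genes that exclude every immunoglobulin gene and Jchain. The UMIs of those genes still counted in the totals by which levels were scaled, and in the doublet calls. Some other genes reported below were markers. Eaf2, Mzb1, Pou2af1, Derl3 and Tnfrsf17, for example, were markers that named the plasma-like class. Plasma-like cells, antibody-secreting cells by their markers, numbered 63 (0.547% of kept cells) in the control and 215 (2.05%) in the knockout. B-like cells numbered 7 (0.0608%) and 440 (4.20%).

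An antibody pairs a heavy chain with a light chain, kappa or lambda. A naive B cell makes IgM and IgD together by splicing one long transcript to Ighm or Ighd. After activation, class switch recombination deletes the DNA between Ighm and a downstream gene, so the cell then makes IgG (Ighg1, Ighg2b, Ighg2c or Ighg3), IgE (Ighe) or IgA (Igha) with the same variable region. The order of the genes on the chromosome limits what can follow, since a switched cell can move only further downstream. Plasma cells secrete the antibody. J chain links IgM and IgA, not IgG, into polymers that the epithelial receptor encoded by Pigr carries across mucosal surfaces.

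In the GRCm38/mm10 build the 8 heavy chain genes lie within 167.901 kb of the minus strand of chromosome 12, between positions 113254830 and 113422730. In the order of transcription they are Ighm, Ighd, Ighg3, Ighg1, Ighg2b, Ighg2c, Ighe and Igha. Igkc lies on chromosome 6 from 70726435 to 70726966 on the plus strand, and Jchain on chromosome 5 from 88519809 to 88527891 on the minus strand. The sequences below are the last 57 coding bases of the secreted transcript, 5′ to 3′, ending in the stop codon. They are shown because they separate the polymer-forming isotypes from IgG and because the assay reads this end of the transcript. Capitals mark the TGC cysteine codon before the last sense codon; this cysteine of the secretory tail is the one through which IgM and IgA polymerise. It was present in Ighm and Igha and in none of the IgG genes. All 6 stretches lie in exons on the minus strand of chromosome 12, at chr12:113420867-113420923 for Ighm, chr12:113258768-113258824 for Igha, chr12:113328976-113329032 for Ighg1, chr12:113306389-113306445 for Ighg2b, chr12:113287389-113287445 for Ighg2c and chr12:113359665-113359721 for Ighg3.
Ighm: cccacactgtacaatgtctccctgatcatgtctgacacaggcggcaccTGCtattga
Igha: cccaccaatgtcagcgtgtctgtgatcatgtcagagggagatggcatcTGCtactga
Ighg1: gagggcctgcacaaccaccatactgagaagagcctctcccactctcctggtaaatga
Ighg2b: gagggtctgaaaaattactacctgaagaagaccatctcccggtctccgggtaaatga
Ighg2c: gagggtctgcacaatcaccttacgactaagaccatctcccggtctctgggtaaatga
Ighg3: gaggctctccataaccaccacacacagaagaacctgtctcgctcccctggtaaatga

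Ighg2b and Ighg2c were the most alike pair, with 86.2% identity over the secreted transcript and a longest shared run of 78 bases. Over the last 300 bases of the transcript, of which 104 are untranslated in each gene, the identity was 82.3% and the longest shared run 44 bases. The other pairs of IgG genes shared 72.5% to 74.7%, with longest runs of 28 to 41 bases. Ighm and Igha shared 47.0% of bases, with a longest run of 12. Reads from Ighg2b and Ighg2c can therefore be split between the genes in counting, and their separate values are uncertain to that degree.

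Antibody transcripts as a whole were more abundant in the knockout tumours. Immunoglobulin UMIs were 0.206% of all control UMIs and 0.848% of all knockout UMIs. Igkc, the kappa constant gene, had 233431 UMIs in kept control cells (1383 CPM) and 757565 in kept knockout cells (5861 CPM), a ratio of 4.24 (4.22 to 4.26). Jchain stood at 119 CPM in the control and 450 in the knockout, a ratio of 3.77 (3.71 to 3.83). Ighm was at 89.2 and 173 CPM, a ratio of 1.94 (1.90 to 1.98). Ighd had 18 UMIs in the control and 1405 in the knockout, a ratio of 102 (64.2 to 172). Among the IgG genes the ratio was 12.2 for Ighg1, 2.97 for Ighg2b, 4.46 for Ighg2c and 1.89 for Ighg3. Igha was at 41.1 and 256 CPM, a ratio of 6.24 (6.08 to 6.40). Ighe, the IgE gene, had 1 UMI in the control and 10 in the knockout and is not compared. Of the 9 genes with at least 20 UMIs, 7 were at least 2-fold higher in the knockout library and none was lower; of all 19425 genes with as many UMIs, 11.7% were at least 2-fold higher and 2.69% lower. The median log2 ratio was 2.08 for the 9 genes and 0.00 for all genes.

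**Figure D1:**
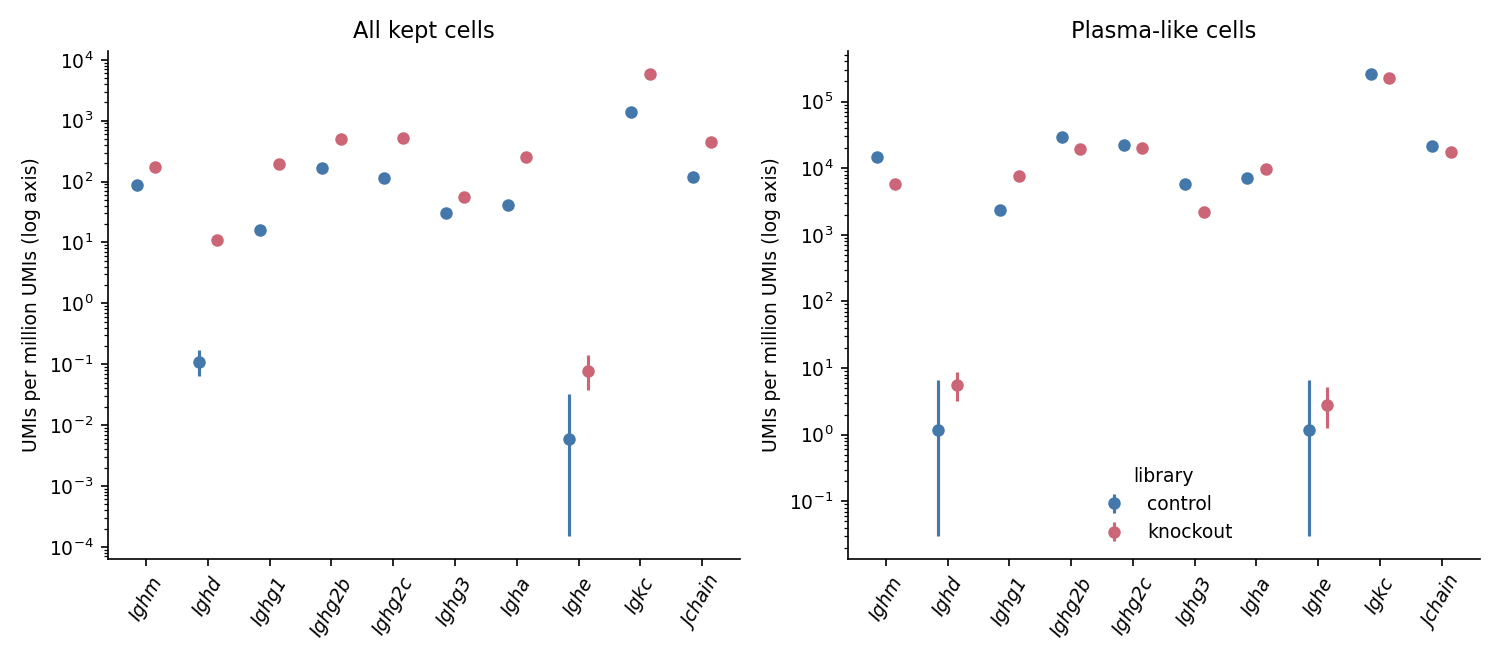
Level of each of the 10 genes in the control and knockout library, in CPM on a log scale, with 95% Poisson intervals, over all kept cells and over plasma-like cells. Over all kept cells every gene was higher in the knockout library; within plasma-like cells Ighm and Ighg3 were lower and Ighg1 higher.

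The plasma-like cells held 92.2% of the UMIs of the 10 genes in the control and 96.8% in the knockout. The library totals of the 10 genes together thus reflect a small class that was 0.547% of control and 2.05% of knockout cells. This does not hold for Ighd. Of its 1405 UMIs in kept knockout cells, 18 were in plasma-like cells and 1307 in B-like cells. Leaving out plasma-like cells, B-like cells and every other cell with over 200 UMIs of the 10 genes, the ratio for Igkc was 4.45 (20 and 89.0 CPM), close to the ratio over all kept cells.

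Within the plasma-like cells the light chain and J chain genes were at similar levels in both libraries. Igkc was at 259240 CPM in the control and 224120 in the knockout, a ratio of 0.865. Jchain was at 21150 and 17423 CPM, a ratio of 0.824. The share of a cell's UMIs taken by immunoglobulin genes ran from 0.157% to 70.3% in control cells with a median of 31.8%, and from 0.174% to 69.8% in knockout cells with a median of 31.5%; the ranges overlapped almost fully. The heavy chain genes differed more. Ighm was at 14648 CPM in the control and 5697 in the knockout, a ratio of 0.389, and Ighg3 at 5840 and 2182, a ratio of 0.374. Ighg1 was at 2334 and 7527 CPM, a ratio of 3.23. Ighg2b had a ratio of 0.652, Ighg2c of 0.900 and Igha of 1.35. Of the 8 genes with at least 20 UMIs, 1 was at least 2-fold higher and 2 at least 2-fold lower, against 8.45% and 7.6% of the 9175 genes tested in these cells. Ighd had 1 UMI in the control and 18 in the knockout plasma-like cells, Ighe 1 and 9.

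These sums rest on few cells. The single control cell with the most Ighg3 held 57% of all plasma-like Ighg3 UMIs, and the corresponding shares were 51.2% for Ighg1 and 28.9% for Ighm. In the knockout the largest shares were 22.0% for Ighg3, 22.0% for Ighg1 and 15.6% for Ighm. Without the top cell of each gene in each library the ratios were 0.665 for Ighg3, 5.15 for Ighg1 and 0.450 for Ighm, so Ighg3 no longer differed 2-fold. The Ighg1 ratio was 1.62 as a mean over cells rather than a sum of UMIs, and between 1.61 and 1.74 with other filters, a coarser clustering or immunoglobulin genes kept in the clustering. With the same marker lists applied to each cell rather than to clusters, more control cells were plasma-like. Ighm then had a ratio of 0.880 and Ighg3 of 0.986.

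Each plasma-like cell was assigned the heavy chain gene with the most UMIs, where it had at least 10 heavy chain UMIs and the first gene exceeded the second at least 2-fold. By this rule 62 of 63 control cells and 201 of 215 knockout cells had an isotype. Ighg2c was the commonest isotype in both libraries, in 23 control cells (37.1%; Clopper-Pearson interval 25.2% to 50.3%) and 92 knockout cells (45.8%; 38.7% to 52.9%). Ighg2b followed with 14 control (22.6%) and 38 knockout cells (18.9%). Ighm was called in 11 control cells (17.7%; 9.20% to 29.5%) and 22 knockout cells (10.9%; 6.99% to 16.1%). Igha was called in 8 control cells (12.9%; 5.74% to 23.9%) and 29 knockout cells (14.4%; 9.88% to 20.1%). Ighg1 had 3 and 14 cells (4.84% and 6.97%), Ighg3 3 and 6. The 4 IgG genes together were called in 43 of 62 (69.4%; 56.4% to 80.4%) and 150 of 201 cells (74.6%; 68.0% to 80.5%). No cell had Ighd or Ighe as its isotype, which allows a share of up to 4.84% in the control and 1.49% in the knockout when the limit is set at 3 cells of those called, and up to 5.78% and 1.82% by the Clopper-Pearson interval.

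The interval of the ratio of shares, which covers counting error only, included 1 for each isotype called. With 1 library per genotype, a difference in isotype makeup between genotypes could not be tested. The number of cells and the share of UMIs gave different pictures of the same genes. Ighg2b took 36.1% of heavy chain UMIs in control plasma-like cells from 22.6% of the called cells, and 29.9% in the knockout from 18.9%. Ighg1 took 2.86% and 11.7% of heavy chain UMIs, with 4.84% and 6.97% of cells. Kappa was the light chain in nearly every cell, with lambda in 1 of 61 control cells and 3 of 207 knockout cells that had a call.

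**Figure D2:**
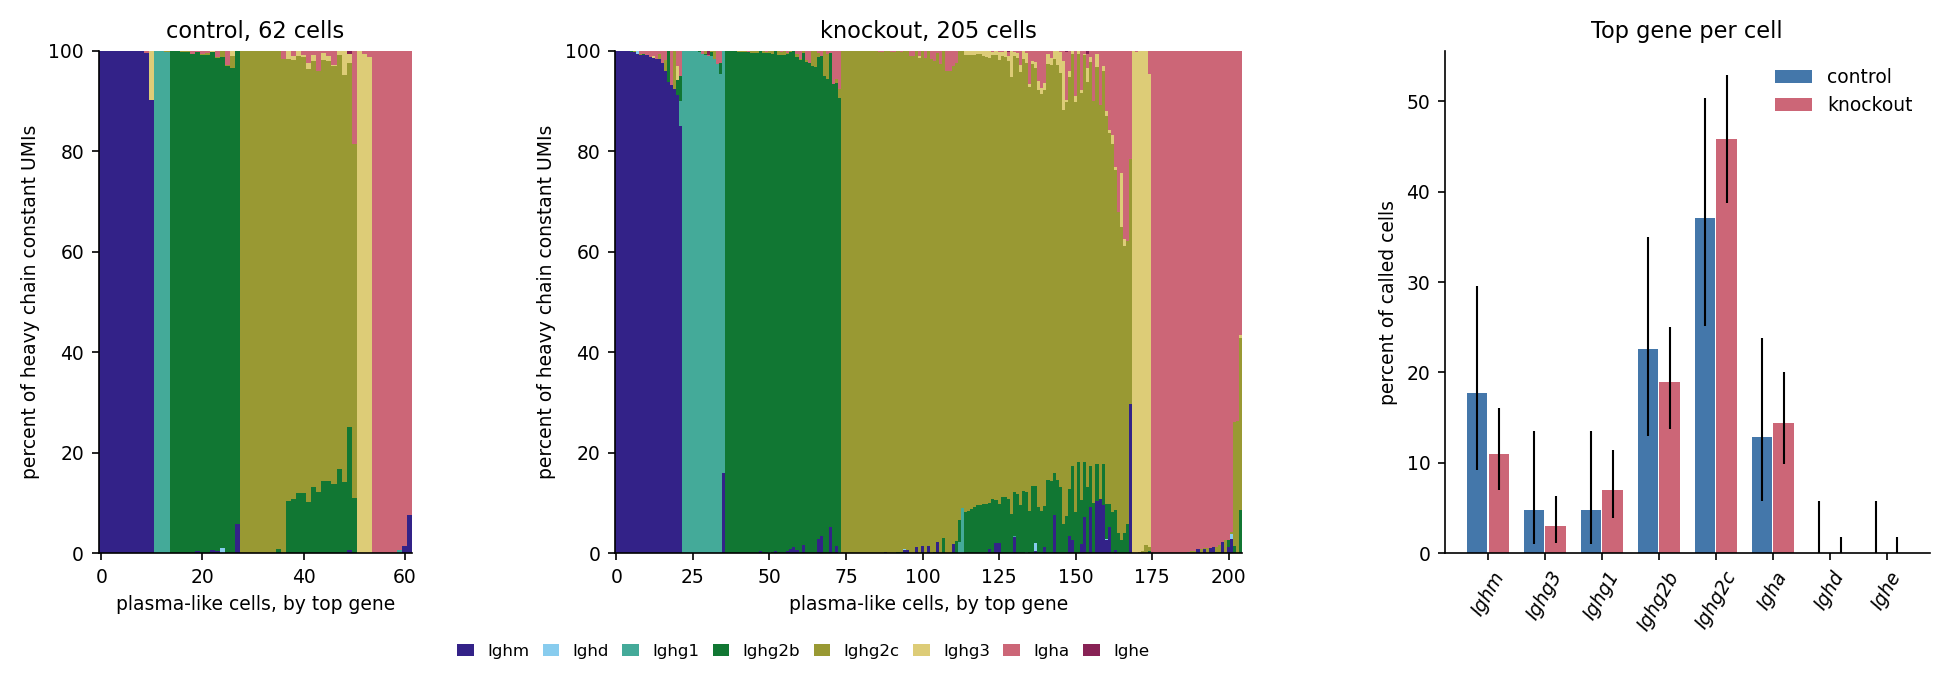
Left and middle, the percent of heavy chain UMIs taken by each gene in every plasma-like cell with at least 10 such UMIs, 1 column per cell, sorted by the top gene, in the control (62 cells) and the knockout (205 cells). Right, the percent of called cells with each top gene, with 95% Clopper-Pearson intervals; Ighg2c was the commonest at 37.1% and 45.8%, and some of its columns carry a band of Ighg2b.

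Most called cells were pure. The called gene made up at least 90% of heavy chain UMIs in 48 of 62 control cells and 148 of 201 knockout cells, with medians of 99.4% and 98.4%. The main exception was Ighg2c. Among the 115 Ighg2c-called cells the share of Ighg2b in the cell's heavy chain UMIs was under 1% in 47 cells and at least 5% in 62, with 6 cells between 2.5% and 4.6% and none between 1% and 2%. Both sets were present in both libraries, with 9 and 14 control cells and 38 and 48 knockout cells. In the set with more Ighg2b the share was 10.1% to 24.6% in the control (median 12.7%) and 5.88% to 18.1% in the knockout (median 9.31%). The 6 cells between were all from the knockout and had few heavy chain UMIs, with a median of 47.5.

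Ighg3, which did not define the sets, divided the same way. It was found in 59 of the 62 cells with more Ighg2b and in 2 of the 47 cells with little, at 1.18% and 0.00858% of heavy chain UMIs. In the control the counts were 12 of 14 and 0 of 9 cells, in the knockout 47 of 48 and 2 of 38. The reverse mixture was small: the 52 Ighg2b-called cells carried a median of 0.254% Ighg2c. The 47 cells with little Ighg2b held 46281 Ighg2c UMIs and 36 Ighg2b UMIs. Whether a cell transcribed the second gene or reads were assigned to it in counting was not tested. Some mouse strains carry Ighg2a in place of Ighg2c and the strain is not given here, so a cell called Ighg2c may carry either allele; this was not tested. The boundaries of 1% and 5% were set after the values were seen.

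Where a heavy and a kappa or lambda variable segment could both be read, cells with the same pair sometimes had different constant genes. In the control 25 cells carried 22 pairs, of which 3 were in 2 cells each and 2 of those under 2 isotypes. In the knockout 89 cells carried 64 pairs, of which 14 were in at least 2 cells, 6 of those under at least 2 isotypes, and the largest was in 4 cells. One pair, Ighv1-42 with Igkv10-96, was found in 4 knockout cells called Ighg2c (2 cells), Ighm (1) and Ighg2b (1). These pairs were singled out after their values were seen, segment names alone do not show that cells share a clone, and the 5 mice of a library cannot be separated.

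J chain was transcribed by cells of every isotype, IgG included. Among Ighm-called cells the median was 364 Jchain UMIs per 10000 UMIs of other genes in the control and 139 in the knockout. In IgG-called cells the medians were 221 and 236. In Igha-called cells they were 257 and 659, and the middle 50% of the knockout Igha-called cells spanned 98.8 to 1142. In the control each of the 3 medians lay within the middle 50% of the other isotypes' cells. In the knockout the Igha median lay above the middle 50% of IgG-called (93.9 to 395) and Ighm-called cells (53.4 to 436), while the ranges of single cells overlapped. Among the IgG-called knockout cells, the 6 called Ighg3 had a median of 602 (middle 50%, 308 to 846), near that of Igha-called cells. Only 1 control and 15 knockout plasma-like cells had no Jchain UMI.

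Of the plasma cell homing and survival genes, Ccr10, Cxcr3 and Tnfrsf17 differed at least 2-fold between Igha-called and IgG-called cells in both libraries. Ccr10, the receptor for the mucosal chemokines CCL27 and CCL28, was higher in Igha-called than in IgG-called cells of both libraries. In the control it stood at 42.1 CPM in IgG-called and 149 in Igha-called cells, a ratio of 3.55 (1.7 to 7.09), and in the knockout at 46.3 and 168, a ratio of 3.63 (2.70 to 4.87). Cells with at least 1 Ccr10 UMI were 7 of 43 IgG-called and 4 of 8 Igha-called in the control, 40 of 150 and 16 of 29 in the knockout. Cxcr3, a receptor for interferon-induced chemokines, had the opposite order. Its ratio of Igha-called to IgG-called cells was 0.124 in the control, on 1 UMI in Igha-called cells, and 0.442 (0.289 to 0.653) in the knockout; 20 of 43 and 95 of 150 IgG-called cells had a UMI, against 1 of 8 and 13 of 29 Igha-called cells.

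Tnfrsf17, which encodes the survival receptor BCMA, was lowest in IgG-called cells. Against these its ratio was 2.11 (0.600 to 6.11) in control and 5.46 (3.28 to 9.14) in knockout Igha-called cells, and 4.6 and 5.01 in Ighm-called cells. Of the homing and survival list, 2 of 10 genes tested were at least 2-fold higher and 2 lower in control Igha-called cells, against 7.41% and 8.95% of all genes. In the knockout 2 of 13 were higher and 1 lower, against 8.43% and 3.84%. For Ighm-called cells the counts were 2 higher and 3 lower of 10 in the control, against 9.79% and 8.11%, and 2 higher and none lower of 13 in the knockout, against 12.8% and 3.61%. Within the knockout all genes together had a median log2 ratio to IgG-called cells of 0.24 in Igha-called and 0.36 in Ighm-called cells.

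**Figure D3:**
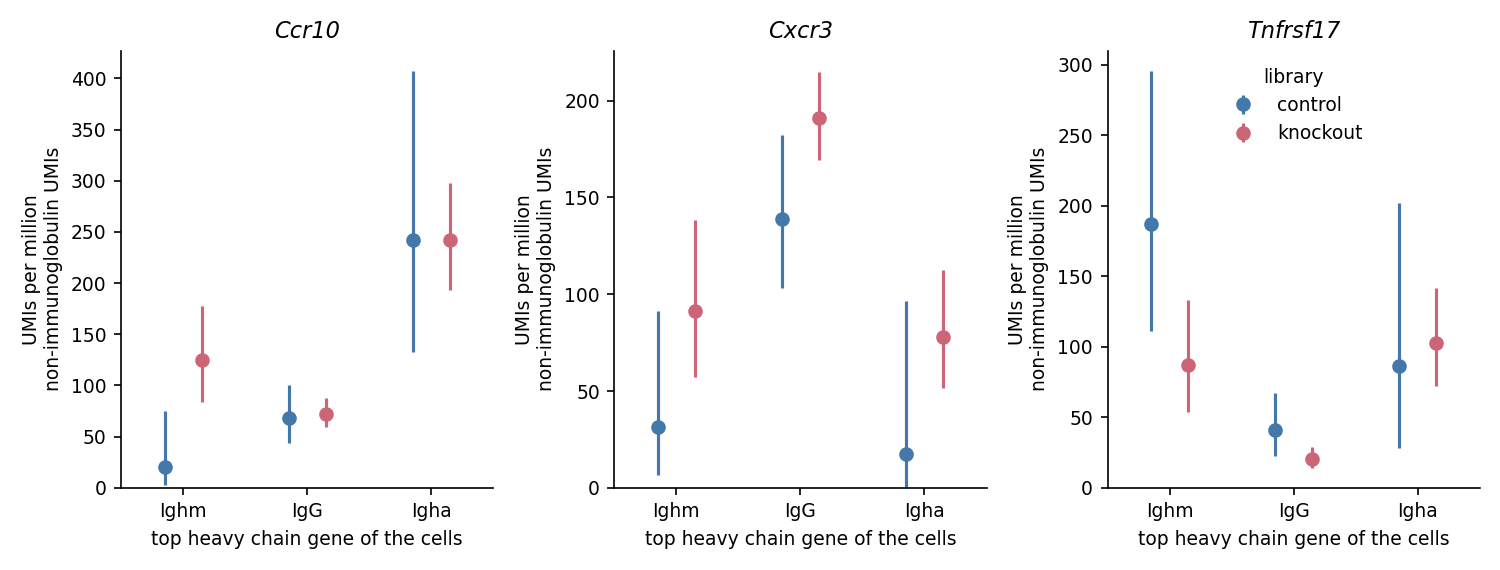
UMIs of Ccr10, Cxcr3 and Tnfrsf17 per 1000000 UMIs that are not from immunoglobulin genes, in plasma-like cells called Ighm, IgG or Igha, by library, with 95% Poisson intervals. Ccr10 was highest in Igha-called cells and Cxcr3 highest in IgG-called cells in both libraries.

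Of the gene lists examined in plasma-like cells, those that stood furthest apart between the libraries were genes of division and of the germinal centre, the site where activated B cells divide and switch class. Of 8 proliferation genes 7 were at least 2-fold higher in the knockout, with a median log2 ratio of 2.04 against 0.08 for all genes. Mki67 had a ratio of 2.80, Top2a of 3.45, Stmn1 of 2.58 and Birc5 of 5.36. Of 15 genes of class switching and the germinal centre 6 were higher and none lower. Of all genes tested in these cells 8.45% were at least 2-fold higher and 7.6% lower. The control cells held 843669 UMIs in all and the knockout cells 3280305. Batf, a factor required for switching, had 2 UMIs in the control and 68 in the knockout, and Tbx21, which promotes switching to Ighg2c, had 4 and 44. Gcsam had 1 and 33 UMIs and Bcl6, the germinal centre master regulator, 3 and 32. The interval of the Bcl6 ratio (0.858 to 14.0) included 1. Rgs13 had 0 and 30 UMIs and was named after its values were seen. All 20 genes of immunoglobulin folding and secretion lay within 2-fold. Of this list Mzb1, Derl3, Xbp1, Fkbp11, Edem1 and Creld2 were also markers that named the class. Of 14 antigen receptor genes 3 were higher (Ptpn6, Blk and Cd22), of 14 homing genes 1 (Tnfrsf13c), of 2 switch cytokines 1 (Il10, with 2 and 35 UMIs), and of 4 Fc receptor genes none. The interval of the Cd22 ratio (0.873 to 30.1) included 1.

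Several germinal centre genes rested on cells with little immunoglobulin. In 18 plasma-like cells, 2 control and 16 knockout, immunoglobulin UMIs were under 2% of the total. Of these, 9 knockout cells had over 5000 UMIs, and together they held 72 UMIs of the B cell gene Ms4a1 and 130 of Mki67, along with 76 of Mzb1, 11 of Xbp1, 6 of Txndc5 and 2 of Derl3, genes of antibody secretion, and none of the plasma cell genes Sdc1, Tnfrsf17 and Prdm1. Without the 18 cells, 1 of the 8 constant and J chain genes tested was at least 2-fold higher and 2 were lower, as with them, against 6.59% and 8.06% of all genes. Likewise 1 of 10 class switching and germinal centre genes tested was at least 2-fold higher, Batf with 2 and 48 UMIs; Tbx21 then had 4 and 26 UMIs, and Gcsam, Bcl6 and Rgs13 had under 20 UMIs in both libraries together and were not tested. Of the proliferation genes 6 of 8 were still higher, with ratios of 2.49 for Mki67, 2.73 for Top2a and 4.82 for Birc5. These are ratios of summed UMIs. Mki67 was seen in similar shares of the remaining cells, 29 of 61 in the control and 106 of 199 in the knockout.

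The knockout library held nearly all B-like cells, and most of them had the IgM and IgD pattern of unswitched cells. Of the 440 cells 399 (90.7%) had Ighm, 367 (83.4%) had Ighd and 355 (80.7%) had both, while 29 had neither. With every cell thinned to 1000 UMIs, which left 434 cells, the shares were 76.7% for Ighm, 59.4% for Ighd and 50.7% for both. In knockout T-like cells thinned the same way Ighm was seen in 6.83% and Ighd in 0.125%. In epithelial/tumour-like cells Ighm was seen in 0.247% and Ighd in 0 of 5679. Median depths before thinning were 2976 UMIs in B-like, 3342 in T-like and 15019 in epithelial/tumour-like knockout cells. Ighm reached 2365 UMIs in the B-like cells, with a median of 5 and a maximum of 32 per cell, and Ighd 1307, with a median of 2 and a maximum of 15. Ighd thus stood at 55.3 UMIs per 100 of Ighm, and 93.0% of the Ighd UMIs of the kept knockout cells were in B-like cells. Ighm and Ighd together were 84.9% of the heavy chain UMIs.

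**Figure D4:**
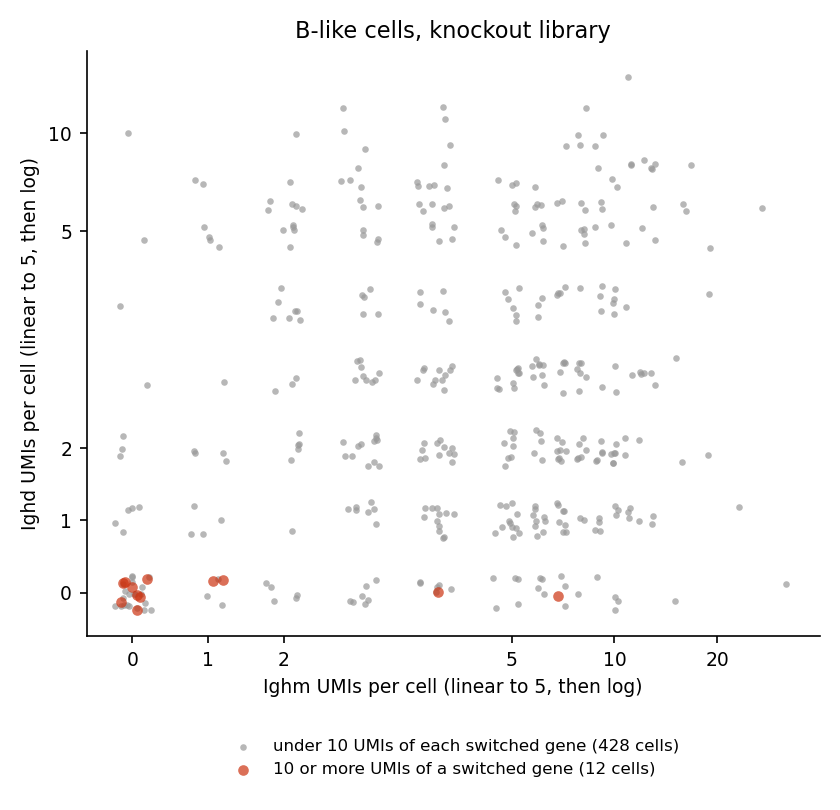
Ighm and Ighd UMIs in each of the 440 B-like cells of the knockout library, on axes linear to 5 UMIs and log above, points jittered, with the 12 cells that had at least 10 UMIs of a switched heavy chain gene marked. Most cells carried both genes, and all 12 marked cells had no Ighd UMI.

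A small set of B-like cells had switched genes. In 12 cells a switched heavy chain gene had at least 10 UMIs, in 9 of them Igha. All 12 had no Ighd UMI, 8 had no Ighm UMI and 11 had Jchain. Their median depth was 8372.5 UMIs against 2951.5 in the other 428 cells. Lambda was the light chain in 17 of 302 B-like cells with a call (5.63%; 3.31% to 8.86%). Kappa-called B-like cells still carried 22.1 lambda UMIs per 100 of Igkc, against 2.19 in control and 1.92 in knockout plasma-like cells. The 7 control B-like cells had 20 Ighm UMIs and 13 Ighd UMIs in all, each gene in 5 cells and both in 4. They are too few for a comparison.

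Cells of the other classes also carried UMIs of these genes. In droplet assays free RNA in the suspension gives such UMIs in cells that do not express a gene. Leaving out cells with over 200 UMIs of the 10 genes, Igkc outside plasma-like and B-like cells was at 20 CPM in the control and 89.0 in the knockout, Ighm at 2.23 and 10.4, and Igha at 1.14 and 5.91 CPM. The ratios were 4.45 for Igkc, 4.68 for Ighm, 5.19 for Igha and 3.87 for Jchain. They stood near the ratios of the whole library for Igkc and Jchain, above that for Ighm and below that for Igha. Ighd and all IgG genes also stood below their ratios of the whole library. Ighg1 was at 6.29 against 12.2, and Ighd, with 4 control UMIs, at 26.9 against 102. The ratio of Ighm to Igkc differed between classes. In epithelial/tumour-like cells Ighm stood at 7.09 UMIs per 100 of Igkc in the control and 3.27 in the knockout, near the 5.65 and 2.54 of plasma-like cells. In T-like cells it stood at 52.9 and 38.9, and in cDC1-like cells, a class of dendritic cells, at 270 and 77.6. NK-like cells of the knockout had 49.7.

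In the knockout these ratios (T-like 35.2 to 43, NK-like 38.1 to 64.5, cDC1-like 57.5 to 104) exceeded that of the B-like cells, 23.6 (22.6 to 24.7). Ighd per 100 of Ighm was at 55.3 in B-like, 2.56 in T-like, 7.87 in NK-like and 1.20 in cDC1-like knockout cells. Knockout T-like cells had Ighm in 312 of 1631 cells (19.1%), 547 UMIs in all and at most 18 in a cell. The B cell gene Cd79a had 14 UMIs in those T-like cells and 0 in the cDC1-like cells. Which cells these UMIs came from was not tested.

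**Figure D5:**
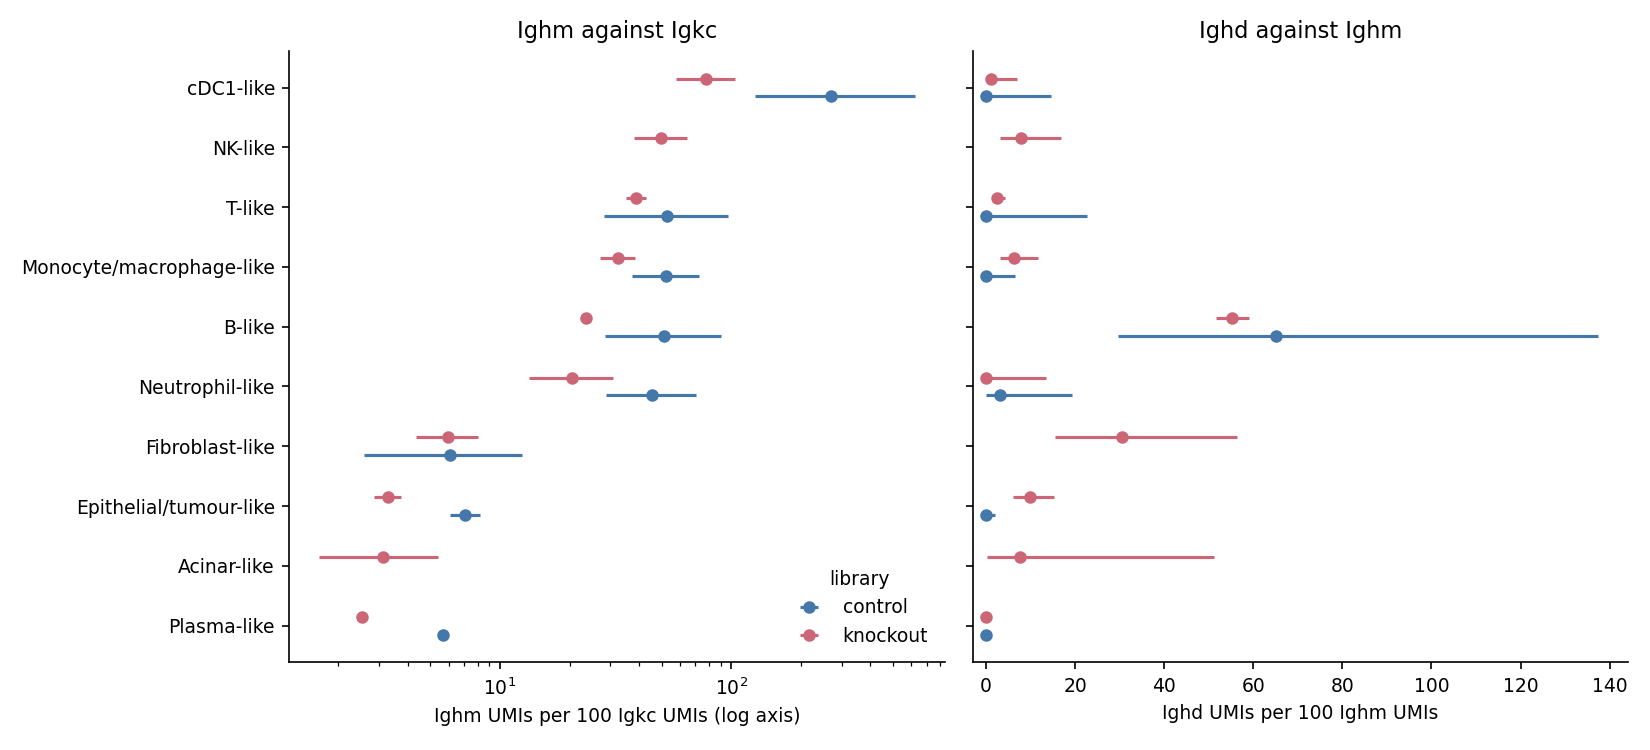
Ighm UMIs per 100 Igkc UMIs (left, log axis) and Ighd UMIs per 100 Ighm UMIs (right, linear axis) by cell class and library, with 95% intervals, where the second gene had at least 10 UMIs; outside plasma-like and B-like cells, cells with over 200 UMIs of the 10 genes were left out. T-like, NK-like and cDC1-like cells lie above plasma-like and epithelial/tumour-like cells on the left, and B-like cells, at 65.0 and 55.3, lie highest on the right.

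A few cells outside the 2 classes carried over 200 UMIs of the 10 genes. In the control they were 9 epithelial/tumour-like cells, which held 70.7% of the class's UMIs of these genes, and 1 fibroblast-like cell, which held 97.9% of its class's. In the knockout they were 2 epithelial/tumour-like cells with 13.2%. With these cells included, Igkc in epithelial/tumour-like cells was at 55.8 CPM in the control and 86.1 in the knockout; without them it was at 19.1 and 72.8. The values depend on which cells enter the class: they were 294 and 388 CPM with a stricter cell filter and 289 and 435 with a looser one. Over all epithelial/tumour-like cells 2 of the 9 genes tested were at least 2-fold higher in the knockout and 2 lower, against 5.09% and 2.21% of all genes. The lower genes were Ighm, with a ratio of 0.136, and Jchain, with 0.486; 1 control cell held 77.1% of the class's Ighm UMIs and 49.9% of its Jchain UMIs were in 1 cell. Without the cells of over 200 UMIs 7 of the 9 were higher and none lower, against 5.17% and 2.15%, and the ratios turned to 1.75 for Ighm and 3.33 for Jchain. In monocyte/macrophage-like cells 6 of 7 were higher and none lower, against 2.64% and 3.22%. In T-like cells 3 of 7 were higher and none lower, against 4.32% and 5.82%.

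The receptors and cytokines that act on these antibodies and their isotypes varied with class. Of 11 Fc receptor and transporter genes tested over kept cells, 4 were at least 2-fold higher in the knockout and 1 lower, against 11.7% and 2.69% of all genes. Fcer1g, the shared signalling chain, had a ratio of 2.28, Fcgr1, the high-affinity IgG receptor, of 3.32, Fcmr, the IgM receptor, of 54.4 and Fcer2a, the low-affinity IgE receptor, of 23.8. Fcmr and Fcer2a were also markers that named the B-like class, which had 7 control and 440 knockout cells. Fcer1a, the mast cell and basophil IgE receptor, had 51 UMIs in the control and 7 in the knockout. Pigr, the carrier of polymeric IgA and IgM, was at 3.76 and 3.95 CPM. Within monocyte/macrophage-like cells, the class Csf1r-Cre is meant to reach, Fcgr1 was at 182 CPM in the control and 412 in the knockout (ratio 2.27; 2.04 to 2.53) and was the 1 of 7 Fc genes past 2-fold, against 2.64% of all genes higher there. Fcgr1 was also a marker that named this class. Of 11 cytokines known to direct switching, 5 were higher over kept cells, against 11.7% of all genes, among them Ifng with a ratio of 4.0, Tnfsf13b with 2.24, Cd40lg with 15.6 and Il10 with 4.42. Within T-like cells, which were 1.65% of control and 15.6% of knockout cells, 4 of 8 were at least 2-fold lower, against 5.82% of all genes: Ifng had a ratio of 0.328, Il4 was at 57.3 CPM in the control and 1.03 in the knockout, Il13 at 31.7 and 0.882, and Il21 at 10.6 and 5.0, where the interval of the ratio (0.207 to 1.27) included 1.

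Across the 20 profiles of 11 classes by library with at least 20 cells, the genes most like these in level were mostly genes of plasma cells. Eaf2, Mzb1, Pou2af1, Derl3 and Tnfrsf17 were themselves markers that named the plasma-like class, so for them this was largely fixed in advance. The likeness was the Pearson correlation of log2 of the CPM plus 10, over 16010 genes, and it is a description of points that share libraries. Igha was closest to Eaf2 (0.984), Mzb1 (0.974), 5830418P13Rik (0.970), Gm30211 (0.969) and Ccr10 (0.967). Ighm was closest to Gm30211 (0.936), Cacna1e (0.933), Mzb1 (0.927), Pou2af1 (0.923) and Eaf2 (0.922). Ighg2b was closest to Amigo2 (0.949), Chst1 (0.935), Derl3 (0.928), Nuggc (0.925) and Ccr10 (0.925). Jchain was closest to Ccr10 (0.964), followed by 5830418P13Rik, Eaf2, Nuggc and Tnfrsf17 (0.95).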

How the data were processed

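Per the labels' protocols, tumours were digested with collagenase V and DNase I, red cells lysed and live cells loaded on the 10x 3′ v3.1 assay. The values are raw UMI counts per gene and barcode, deposited by the authors after their own cell calling. The header of the deposited matrices names Cell Ranger 8.0.0, while the submitters' processing notes name Cell Ranger 3.1.3 and mm10; the counting settings are not given in the sources used here.

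Barcodes under 500 genes or over 15% mitochondrial UMIs were dropped, and doublets called by Scrublet in each library were removed (148 and 341). Cells were clustered in scanpy 1.11.5 (2000 variable genes without the 393 immunoglobulin rows, 30 components, 15 neighbours, Leiden resolution 1), and clusters were named from marker lists. Levels are UMIs summed over cells per 1000000 UMIs. Intervals are exact Poisson, Clopper-Pearson or conditional binomial (scipy 1.17.1). They cover counting error only. A fold between sums was called past 2-fold after adding 1 UMI to each sum, for genes with at least 20 UMIs in both sums together. UMIs mark 1 end of each transcript and were not divided by gene length. Thinning drew 1000 UMIs without replacement from each cell. The fold, interval and isotype steps were tested on simulated data.

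The genes named are the 10 constant genes, the lambda genes, the 5 most alike outside the immunoglobulin loci for Igha, Ighm, Ighg2b and Jchain, and up to 4 genes past 2-fold with the most UMIs of each list. Lists were antigen receptor complex, class switching and germinal centre, immunoglobulin folding and secretion, Fc receptors and transporters, switch cytokines, plasma cell homing and survival, and proliferation. For 1 gene of these lists, which the counts include, no value is reported here. The members and lists were chosen with earlier results of these data known. Sequences and positions are from GENCODE M21 and its transcripts on GRCm38/mm10. All 13 constant gene and Jchain identifiers matched. With 1 library per group no test across libraries, replicate left out or paired fit was possible.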

Additional observations from a re-analysis of the deposited data

Results flagged for a closer look

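Among the barcodes removed before clustering, 14 of the knockout library had over 200 UMIs of the 10 genes and none of the control library had. Of the 14, 11 had been called doublets, and together they held 31921 Igkc UMIs. They stand outside every comparison above. The lambda gene Iglc1 had 29879 UMIs over all deposited knockout barcodes and 18282 in kept cells. Over all barcodes the ratio of knockout to control for Iglc1 was 2.82, over kept cells 1.79.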

How the results depend on the processing

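No paired analysis was possible because each genotype had 1 library, and for the same reason no replicate could be left out. Of the alternatives for the main results, 158 left the value within its counting interval, or a count within 1.5 times, and 28 did not. For the other results, among them the single-gene ratios in plasma-like cells, 25 did and 92 did not. No ratio past 2-fold in plasma-like cells turned its direction. The number of control B-like cells, 7, was 2 with a strict filter, 12 with a loose one and 11 when each cell was classed from its own markers, and control plasma-like cells then numbered 122. With cells classed this way 5 rather than 3 of the 10 genes lay at least 2-fold apart in plasma-like cells. Ighm and Ighd made up 79.8% (strict filter), 70.1% (own markers) and 88.9% (mean over cells) of heavy chain UMIs in knockout B-like cells. The Igkc CPM in epithelial/tumour-like cells was 294 and 388 in control and knockout with the strict filter, 289 and 435 with the loose one, 297 and 584 with immunoglobulin genes kept in the clustering, 29.8 and 75.9 with own markers, and 19.1 and 72.8 without cells of over 200 UMIs of the 10 genes; it was 60.7 in the control with doublets kept. Without those cells of over 200 UMIs, 7 rather than 2 of the genes were at least 2-fold higher in knockout epithelial/tumour-like cells and 0 rather than 2 lower. Requiring the first heavy chain gene to exceed the second 10-fold lowered the Ighg2c share to 19.1% and 31.2%. The share of B-like cells with Ighm and Ighd was 72.4% at 2000 UMIs and 80.7% without thinning. Without plasma-like cells under 2% immunoglobulin, 1 rather than 6 class switching and germinal centre genes was higher. With at least 100 UMIs per gene, 1391 rather than 2271 genes were at least 2-fold higher in the knockout and 291 rather than 523 lower.

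Cell number limits the control most: 7 B-like and 63 plasma-like cells leave isotype shares with wide intervals and place most of a gene's UMIs in few cells. Mice were pooled, so the spread between animals is unknown. The handling of reads shared by alike IgG genes is not given in the sources used here.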

Other observations

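Of the 9 control epithelial/tumour-like cells with over 200 UMIs of the 10 genes, several shared an isotype and a leading variable segment. They were 2 Igha cells with Igkv10-96, 2 Ighg1 cells with Ighv3-8, 2 Ighg2c cells with Ighv1-82 and 3 Ighm cells with the lambda segment Iglv1. The grouping was noticed after the values were seen.

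The variable pair Ighv11-2 with Igkv14-126, known from B-1 cell antibodies to phosphatidylcholine, was read in 2 control plasma-like cells, both Ighm-called, with 2429 and 2055 Ighm UMIs. It was read in 1 knockout plasma-like cell, also Ighm-called, with 1005 Ighm UMIs. Each of these cells had at most 2 UMIs of the other heavy chain genes.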
